A study of Mus musculus with 4 samples.

Results

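Enzymes that cut the extracellular matrix, and the inhibitors that hold these enzymes in check, were followed in mouse embryonic stem cells (mESCs) with and without Haspin, a kinase that phosphorylates histone H3 at threonine 3 during mitosis. The gene set was chosen by symbol and comprised the matrix metalloproteinases (Mmp), the tissue inhibitors of metalloproteinases (Timp), the ADAMTS proteases (Adamts), the ADAMTS-like proteins (Adamtsl) and the serpins (Serpin), without Serpinh1 and without pseudogene symbols. It held 114 of the 55401 genes counted, namely 23 matrix metalloproteinases, 4 TIMPs, 19 ADAMTS proteases, 5 ADAMTS-like proteins and 63 serpins.

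RNA-seq was performed on the E14 line of mESCs, with 2 WT libraries and 2 Haspin knockout (Haspin-KO) libraries. The study's culture medium for mESCs held serum with LIF and 2i, and the sample titles name no treatment. Per the study's methods, mESCs were passaged on mitomycin C-treated mouse embryonic fibroblasts, or on gelatin for assays. Haspin-KO lines were picked as clones after transfection with guide RNAs and Cas9 and selection with puromycin. No such step is described for WT. From the labels it is not known which Haspin-KO line was sequenced in which library, or whether the libraries of a group came from separate cultures, so the p-values measure only the spread between these libraries. Library totals were 14207828 to 21834847 counted reads. Haspin itself stood at 33.0% of its WT level in Haspin-KO, with a log2 fold change of -1.60 (SE 0.16, adjusted p = 0.00154).

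Matrix metalloproteinases are zinc enzymes that are made as inactive proenzymes and cleave collagens, other matrix proteins and cell surface proteins. TIMPs bind their active site and block them. ADAMTS proteases are secreted relatives with thrombospondin repeats that cleave proteoglycans and procollagens, whereas ADAMTS-like proteins share the repeats but lack the catalytic domain. Most serpins trap serine proteases in a covalent complex, and the plasminogen activators, which start the plasmin cascade on the cell surface, are among their best-known targets.

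Most members of the set were barely transcribed in these cells. No read was counted for 40 of the 114 members in any library, and 23 more had 1 to 10 reads over the 4 libraries. Over the whole table, 26731 of the 55401 genes had no read in any library and 15580 passed the filter on low counts. Silence was thus not particular to this set. The filter on low counts left 42 members for testing, namely 10 matrix metalloproteinases, 3 TIMPs, 13 ADAMTS proteases, 3 ADAMTS-like proteins and 13 serpins. Among the serpins, 2 of the 24 on chromosome 12 and 1 of the 14 on chromosome 1 were tested, against 6 of the 16 on chromosome 13, which belong to clade B.

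The same held for the cluster of matrix metalloproteinase genes on chromosome 9 (mm10, 7272514 to 7699585). Its 10 members, which include the collagenases Mmp1a, Mmp1b, Mmp8 and Mmp13, the stromelysins Mmp3 and Mmp10, and the macrophage elastase Mmp12, together received 0 and 8 reads in the WT libraries and 7 and 1 reads in the Haspin-KO libraries. None was tested, and 6 of them had no read at all. Promoters of 4 of them are shown because they hold a motif that was found in no tested member with a listed promoter. Their RNA was close to absent from both groups. The 120 bases that end at the RefSeq start site (GRCm38.p6) are printed 5′ to 3′ on the strand of the gene, with capitals for the AP-1 motif TGANTCA and for the TATA box TATAAA.
Mmp1a, chr9:7464021-7464140, plus strand: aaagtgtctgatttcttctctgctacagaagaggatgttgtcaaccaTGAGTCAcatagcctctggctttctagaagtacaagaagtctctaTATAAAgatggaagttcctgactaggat
Mmp3, chr9:7445702-7445821, plus strand: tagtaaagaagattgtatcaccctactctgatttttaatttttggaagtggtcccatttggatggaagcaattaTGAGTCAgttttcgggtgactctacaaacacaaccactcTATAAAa
Mmp10, chr9:7502222-7502341, plus strand: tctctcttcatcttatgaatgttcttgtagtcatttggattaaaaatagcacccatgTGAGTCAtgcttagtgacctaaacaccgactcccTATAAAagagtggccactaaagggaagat
Mmp13, chr9:7272394-7272513, plus strand: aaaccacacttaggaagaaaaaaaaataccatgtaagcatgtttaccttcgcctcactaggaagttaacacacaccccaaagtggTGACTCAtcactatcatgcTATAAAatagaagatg

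The AP-1 motif lay in the 250 bases before the start of 8 of these 10 genes, and 7 of the 10 also held the sequence TATAAA. The AP-1 motif began 73 bases before the start of Mmp1a, 46 before that of Mmp3, 63 before that of Mmp10 and 35 before that of Mmp13. Both strands were searched, and the same motif was found in 7.82% of the 27025 promoters in the RefSeq table. A promoter was listed for 89 of the 114 members. The AP-1 motif was present in 19 of the 62 members that were not tested and in 0 of the 27 that were. Those 19 were the 8 genes of the chromosome 9 cluster, copies of Serpina1 on chromosome 12 and clade B serpins on chromosome 1. Genes within such clusters are related copies, so the 19 are not independent, and a link between motif and silence was not tested. The sequence TATAAA was present in 23 of the 62 members not tested, in 1 of the 27 tested and in 14.3% of all promoters. It was counted at any distance in the window, from 7 bases before the start in Mmp3 to 244 in Serpini2. A match is therefore not always a TATA box at its usual place. The TEAD motif GGAATG occurred in 10 of the 62 and 4 of the 27, against 14.4% of all promoters. The CArG box occurred in none of the 89, against 1.62% of all promoters. Tested members without a listed promoter were not searched. The motif matches are descriptions of these windows, and binding was not measured.

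Among the 42 members tested, 7 fell in Haspin-KO cells and 1 rose, by a fold change over 2 and a Benjamini-Hochberg adjusted p, computed over all 15580 genes that entered edgeR's test, under 0.05. By this rule 0.501% of all genes tested fell and 0.327% rose. Among the genes that fell were the inhibitors Timp2 and Timp3, the serpin Serpinf1, and the proteases Adamts1, Adamts5 and Adamts12. Serpine2 rose. By adjusted p alone, 8 members were lower, Mmp14 being the added gene, against 1.51% of all genes, and 1 was higher, against 0.988%. The median log2 fold change over the 42 members was -0.05, with 23 negative and 19 positive values, and that of all genes tested was -0.0039. Both Haspin-KO libraries lay outside the range of the WT libraries for 23 of the 42 members, and this was so for 52.3% of all genes tested. The count of members that fell was 2 without WT replicate 1 and 3 without WT replicate 2, and Serpine2 stayed called only without Haspin-KO replicate 2. DESeq2 called 4 members lower, and limma on the FPKM values called 0, both with its filter and with no filter. On log2(FPKM + 0.1) with the filter, 5 members passed an unadjusted p under 0.05 and the same fold.

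**Figure D1:**
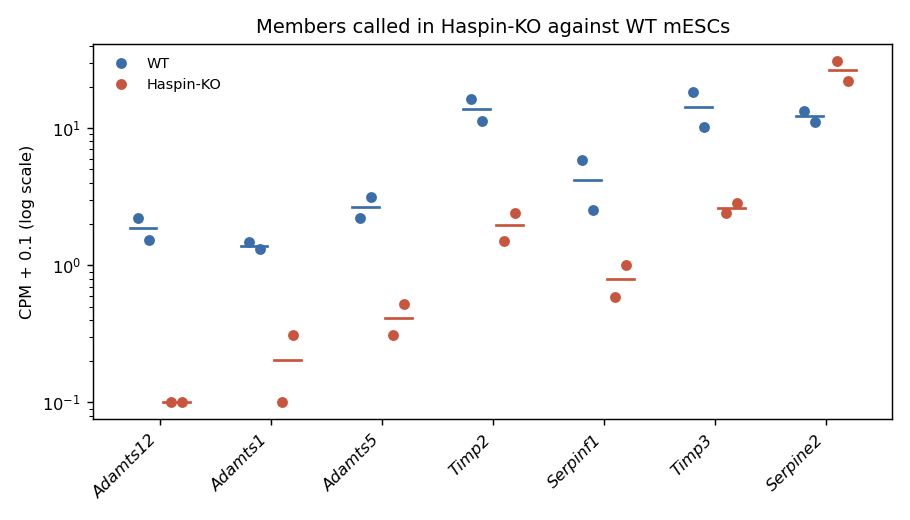
Normalised read counts (CPM + 0.1, log scale) of 7 members called in Haspin-KO against WT, with a point for each library and a line for each group mean (n = 2). Both Haspin-KO points lie below both WT points for 6 genes and above them for Serpine2, and Adamts12 has 0 reads in both Haspin-KO libraries.

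Of the 4 TIMPs, Timp2 and Timp3 fell and Timp1 did not pass the test. Timp2 (ENSMUSG00000017466, chr11:118301069-118355740, minus strand in mm10), a soluble inhibitor that also takes part in the activation of pro-MMP2 by MMP14, had 353 and 194 reads in WT and 20 and 33 in Haspin-KO. Its mean was 13.7 ± 3.51 CPM in WT and 1.85 ± 0.65 CPM in Haspin-KO (SD, n = 2 each), where CPM is the count scaled to the library size after TMM normalization. The groups did not overlap, and the log2 fold change was -2.89 (SE 0.28, adjusted p = 0.00144).

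Timp3 (ENSMUSG00000020044, chr10:86300372-86349506, plus strand), the TIMP that binds to the matrix and inhibits ADAM and ADAMTS proteases too, had 399 and 174 reads in WT and 33 and 39 in Haspin-KO. Both Haspin-KO libraries were below the lower WT library, although the WT libraries differed by 1.82-fold in CPM. The log2 fold change of Timp3 was -2.50 (SE 0.31, adjusted p = 0.00465), and without WT replicate 1 the adjusted p was 0.0543. Timp3 lies inside Syn3, which encodes a synapsin on the opposite strand, and the exons of the 2 genes share 1733 bases, or 21.3% of the Timp3 exons. The strand setting of the read counting was not stated, so reads from the shared bases cannot be assigned with certainty. Syn3 itself had 8 and 11 reads in WT and 12 and 4 in Haspin-KO.

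Timp1 (ENSMUSG00000001131, chrX:20870166-20874735, plus strand) was by far the most abundant member per length. Its level was 38.9 and 37.4 FPKM in WT and 36.9 and 32.5 FPKM in Haspin-KO, where FPKM is the count scaled by exonic length and library total. Its log2 fold change was -0.14 (SE 0.10, adjusted p = 0.476), although the groups did not overlap. Timp4 had 0 and 0 reads in WT and 1 and 1 in Haspin-KO and was not tested. Summed over the family, the TIMPs had 45.3 and 41.4 FPKM in WT and 37.6 and 33.5 FPKM in Haspin-KO, and Timp1 made up 92.4% of the sum over the 4 libraries.

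**Figure D2:**
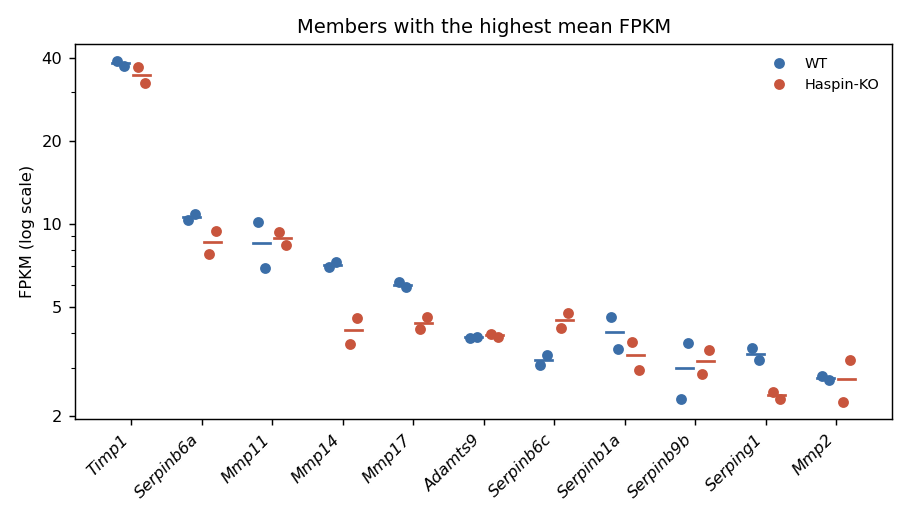
FPKM (log scale) of 11 of the 12 tested members with the highest mean over the 4 libraries, with a point for each library and a line for each group mean (n = 2). Timp1 stands highest at a mean of 36.4 FPKM, and the Haspin-KO points of Mmp14 and Mmp17 lie below their WT points.

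Among the serpins, Serpine2 (ENSMUSG00000026249, chr1:79794197-79861180, minus strand), which encodes protease nexin-1, an inhibitor of thrombin, urokinase and plasmin, had 290 and 191 reads in WT and 442 and 314 in Haspin-KO. It was the member that rose, from 12.2 ± 1.60 CPM to 26.4 ± 6.21 CPM (SD, n = 2 each), with a log2 fold change of 1.11 (SE 0.18, adjusted p = 0.0155). When WT replicate 1, WT replicate 2 or Haspin-KO replicate 1 was left out, Serpine2 was no longer called (in the last case through its fold), and its log2 fold change lay between 0.85 and 1.34 over the fits without 1 library. Per length, its level was 1.60 and 1.32 FPKM in WT and 3.75 and 2.62 FPKM in Haspin-KO, and the groups did not overlap.

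Serpinf1 (ENSMUSG00000000753, chr11:75409769-75422701, minus strand) encodes pigment epithelium-derived factor, a secreted serpin that does not inhibit proteases and blocks the growth of blood vessels. It had 125 and 42 reads in WT and 7 and 13 in Haspin-KO. The WT libraries differed from each other by 2.36-fold in CPM, the widest gap between them among the genes called. The log2 fold change of Serpinf1 was -2.55 (SE 0.50, adjusted p = 0.0333). Only 1 Haspin-KO library reached the level of the filter on low counts, so that Serpinf1 too entered the test through WT. Without WT replicate 1 its adjusted p was 0.279, and without WT replicate 2 it was 0.0548.

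The primers that the study designed for qRT-PCR of Serpinf1 are shown because they tell which part of the transcript that assay reads. A search of GENCODE's GRCm38 transcripts gave their places, and positions are counted from the 5′ end of Serpinf1-201, a transcript of 1832 bases.
Forward primer: ccaacttcggctacgatctgt
Reverse primer: tctgttcgatgttcagctccc
The forward primer matched bases 386 to 406, in exon 3 (chr11:75416317-75416337). The reverse primer matched the opposite strand at bases 492 to 512, across the junction of exons 3 and 4. All 21 bases of each primer lie in coding sequence.

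The other serpins tested included Serpinb6a, the most abundant serpin per length, an intracellular inhibitor of clade B. It had 10.3 and 10.9 FPKM in WT and 7.78 and 9.43 FPKM in Haspin-KO, with a log2 fold change of -0.30 (SE 0.11, adjusted p = 0.173). Its exons share bases with 3 other genes, including 762 bases with Nqo2. Serping1, the C1 inhibitor of the complement system, had 179 and 130 reads in WT and 81 and 78 in Haspin-KO, and its log2 fold change was -0.50 (SE 0.18, adjusted p = 0.167). Serpinb6c had 93 and 81 reads in WT and 83 and 95 in Haspin-KO, with a log2 fold change of 0.48 (SE 0.21, adjusted p = 0.226). These 3 genes had an unadjusted p under 0.05 and did not pass after adjustment. Serpinb1a, an inhibitor of neutrophil elastase, and Serpinb9b had log2 fold changes of -0.29 (SE 0.20) and 0.08 (SE 0.23).

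In total, 2 of the 13 serpins tested fell, 1 rose and 10 were not called. The sum of all serpins was 43.5 ± 5.00 FPKM in WT and 30.9 ± 0.39 FPKM in Haspin-KO (SD, n = 2 each), with no overlap between the groups. Single genes can carry most of such a difference, so the sum does not show a fall shared by the serpins. The clade A and clade B serpins include copies of nearly the same sequence, whose reads may have been divided among them or lost, so the values of single genes of these clades are uncertain.

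Among the 13 ADAMTS proteases tested, 3 fell and 10 were not called. All of those that fell were transcribed at a low level in WT. Adamts12 (ENSMUSG00000047497, chr15:11064790-11349231, plus strand), which cleaves cartilage oligomeric matrix protein, had 46 and 25 reads in WT and none in either Haspin-KO library. Its WT mean was 8.47-fold the floor of 3 reads in each Haspin-KO library (adjusted p = 0.00829). Its level in WT was 0.19 and 0.13 FPKM.

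Adamts1 and Adamts5 are neighbours on chromosome 16, 53.1 kb apart on the minus strand, and both encode proteases that cleave aggrecan and versican. Adamts1 (ENSMUSG00000022893, chr16:85793827-85803113) had 30 and 21 reads in WT and 0 and 3 in Haspin-KO. Its WT mean was 6.17-fold the same floor (adjusted p = 0.0388). Adamts5 (ENSMUSG00000022894, chr16:85856173-85901828) had 46 and 53 reads in WT and 3 and 6 in Haspin-KO, with a log2 fold change of -3.00 (SE 0.47, adjusted p = 0.0152). It was the one gene that fell whose CPM was lower in WT replicate 1 than in WT replicate 2.

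These 3 proteases passed the filter only through their WT libraries, so they could be called only as lower, and their calls rested on few reads. Without WT replicate 1 and without WT replicate 2, the adjusted p was 0.105 and 0.0612 for Adamts12, 0.1 and 0.114 for Adamts5, and 0.252 and 0.155 for Adamts1. Without Haspin-KO replicate 1, that of Adamts1 was 0.0664.

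The promoters of Adamts1 and Adamts12 are printed in the same way as those of the chromosome 9 cluster, as 2 genes that fell to few or no reads. Of the 27 tested members with a listed promoter, Adamts1 alone had the sequence TATAAA, which lies 32 to 27 bases before its start. No AP-1 motif was found in the 250 bases before the start of either gene.
Adamts1, chr16:85803114-85803233, minus strand: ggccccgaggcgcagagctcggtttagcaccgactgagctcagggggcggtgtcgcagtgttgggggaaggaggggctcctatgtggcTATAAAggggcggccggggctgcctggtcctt
Adamts12, chr15:11064653-11064772, plus strand: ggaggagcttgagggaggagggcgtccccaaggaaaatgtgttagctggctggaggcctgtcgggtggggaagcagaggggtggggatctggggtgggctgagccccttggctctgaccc

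Adamts9, a protease that cleaves versican and aggrecan, was the most abundant ADAMTS gene and had almost equal values in all libraries, with 3.86 and 3.89 FPKM in WT and 3.99 and 3.87 FPKM in Haspin-KO. Its log2 fold change was 0.02 (SE 0.08, adjusted p = 0.936). Adamts3, a procollagen N-proteinase, had 44 and 27 reads in WT and 50 and 43 in Haspin-KO, and a log2 fold change of 0.85 (SE 0.29, adjusted p = 0.141). The summed FPKM of the ADAMTS genes was 12.1 and 11.5 in WT and 12.5 and 12.1 in Haspin-KO, so that the groups overlapped. None of the 3 ADAMTS-like genes tested was called.

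None of the 10 matrix metalloproteinases tested was called. Mmp14 (ENSMUSG00000000957, chr14:54431612-54445364, plus strand), the membrane-bound activator of pro-MMP2, came nearest. It had 903 and 755 reads in WT and 309 and 392 in Haspin-KO, or 42.4 ± 1.57 and 24.5 ± 4.20 CPM (SD, n = 2 each). The groups did not overlap and the adjusted p was 0.0156, but the log2 fold change of -0.79 (SE 0.13) was short of the fold required, and the adjusted p reached 0.166 when a library was left out. Mmp17, another membrane-bound enzyme, had 885 and 682 reads in WT and 391 and 437 in Haspin-KO, with a log2 fold change of -0.47 (SE 0.10, adjusted p = 0.051).

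Mmp2, the gelatinase that MMP14 and TIMP2 activate together, had 205 and 160 reads in WT and 108 and 156 in Haspin-KO. Its log2 fold change was -0.01 (SE 0.20), so that among the genes for these 3 proteins Timp2 alone was called. Mmp9, the other gelatinase, had 16 and 10 reads in WT and 12 and 8 in Haspin-KO, with a log2 fold change of 0.08 (SE 0.47). Mmp11, also known as stromelysin 3, had the highest FPKM of the family, at 10.1 and 6.91 in WT and 9.30 and 8.40 in Haspin-KO, and its log2 fold change was 0.04 (SE 0.17). For Mmp2, Mmp9 and Mmp11 the groups overlapped, and the sign of the log2 fold change turned when single libraries were left out.

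The 21 tested members not described by name had log2 fold changes from -0.93 in Serpina3h to 0.55 in Adamts14, with adjusted p between 0.289 and 0.957.

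**Figure D3:**
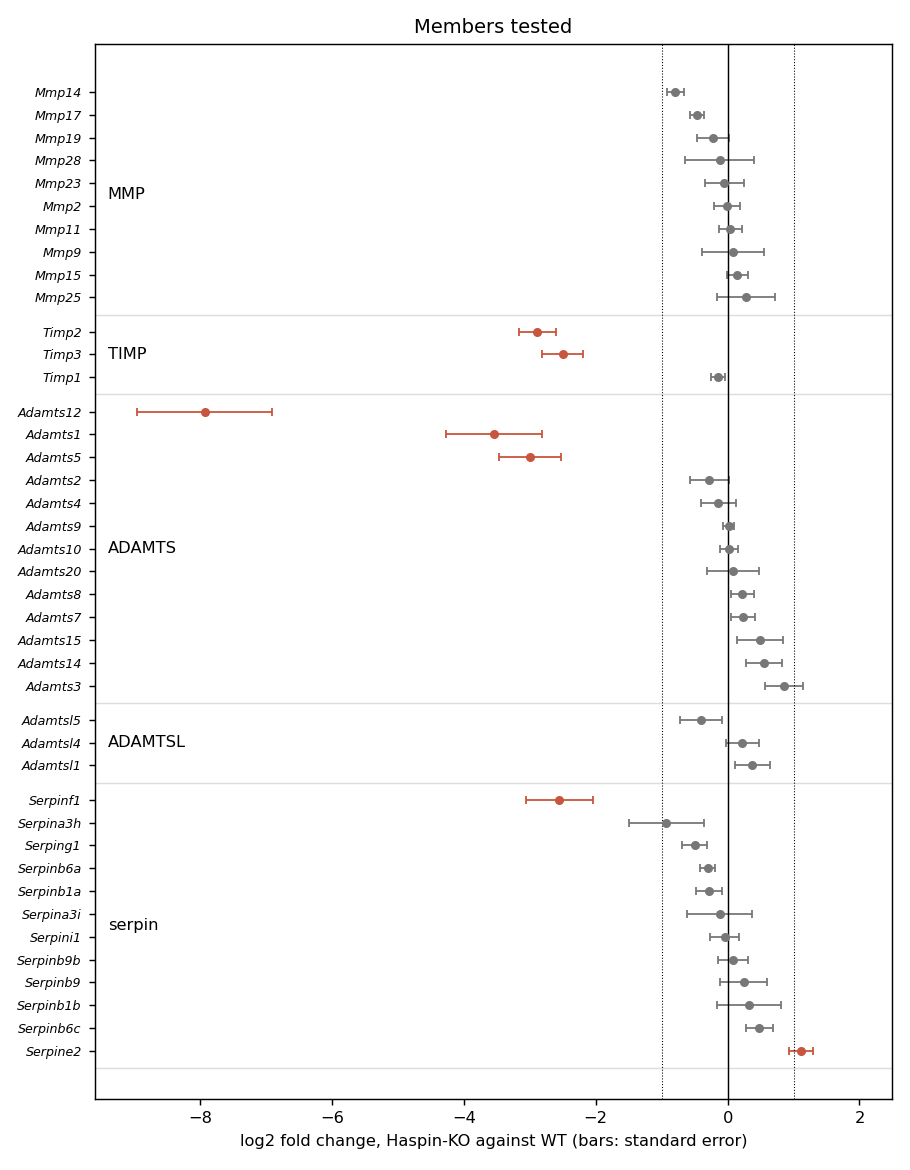
Log2 fold change of Haspin-KO against WT for the members tested, grouped by class, with bars for the standard error from edgeR, dotted lines at -1 and 1, and the called genes in red. The called genes lie in the TIMPs, the ADAMTS proteases and the serpins, whereas all 10 matrix metalloproteinases lie between the dotted lines. The point of Adamts12 is a fitted value for a gene with no read in Haspin-KO.

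Fibroblast markers were lower in Haspin-KO too. The list held 14 markers, of which 9 were tested and 7 called lower. For 6 of these 7, all but Col1a1, neither Haspin-KO library reached the level that the filter on low counts asks for, so that they were tested only through WT and could be called only as lower. The summed level of the 14 markers was 190 and 141 CPM in WT and 12.1 and 9.95 CPM in Haspin-KO, or 6.67% of WT. Postn and Lox, which encode periostin and lysyl oxidase, had 171 and 77, and 1215 and 657 reads in WT and 0 reads in both Haspin-KO libraries. Col1a1, the main chain of type I collagen, had 1063 and 575 reads in WT and 24 and 24 in Haspin-KO. The defining markers Dcn, Lum, Twist2, Fap and S100a4 were not tested and were at 0 in both Haspin-KO libraries, but they were low in WT too. Dcn had 4 and 2 reads in WT, Twist2 had 1 and 3, Fap had 1 and 0, Lum had 0 and 0, and S100a4 had 22 and 9, so for Dcn, Twist2, Fap and Lum no fall can be read from the 0. Pdgfrb, which also marks fibroblasts, stood at 55.6% of WT and was lower by adjusted p alone. Its log2 fold change was -0.85 (SE 0.18, adjusted p = 0.0392), short of the fold required, and the groups did not overlap. Thy1 stood at 69.9% of WT with overlapping groups (adjusted p = 0.474). The summed fibroblast markers were 1.35-fold higher in WT replicate 1 than in WT replicate 2, and Lox and Col1a1 had the highest CPM in this sum. Their ratios of WT replicate 1 to WT replicate 2 were both 1.47. The ratio was 1.22 for Col1a2 and Pdgfrb, 1.29 for Tnc and 1.76 for Postn. For Prrx1 it was 1.02, and for Col3a1 and Thy1 0.91. Of the 7 members that fell, 6 were also higher in WT replicate 1, with a median log2 ratio of 0.55, against 0.03 for the 34 members not called and 0.00043 for all genes tested.

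The members described here that fell stood between 0 and 17.8% of their WT level in Haspin-KO, and the members not called between 52.8% and 182%. The fold that a call requires sets part of this gap. The 8 mESC markers, among them Pou5f1, Nanog and Sox2, stood at 94.0% of WT in sum, with none called. Markers of primitive endoderm stood at 87.2% in sum with none called, and markers of 2-cell-like cells at 234%, with 4 of the 7 tested higher. Lama1 made up most of the primitive endoderm sum, with means of 117 CPM in WT and 98.1 CPM in Haspin-KO. The median log2 fold change of the 6 tested was 0.1, positive in Gata6, Sox17 and Pdgfra and negative in Gata4, Dab2 and Lama1. The part of the fibroblast markers in the fall of the members was not tested, and in these bulk libraries fewer cells of a type and less RNA per cell cannot be told apart.

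**Figure D4:**
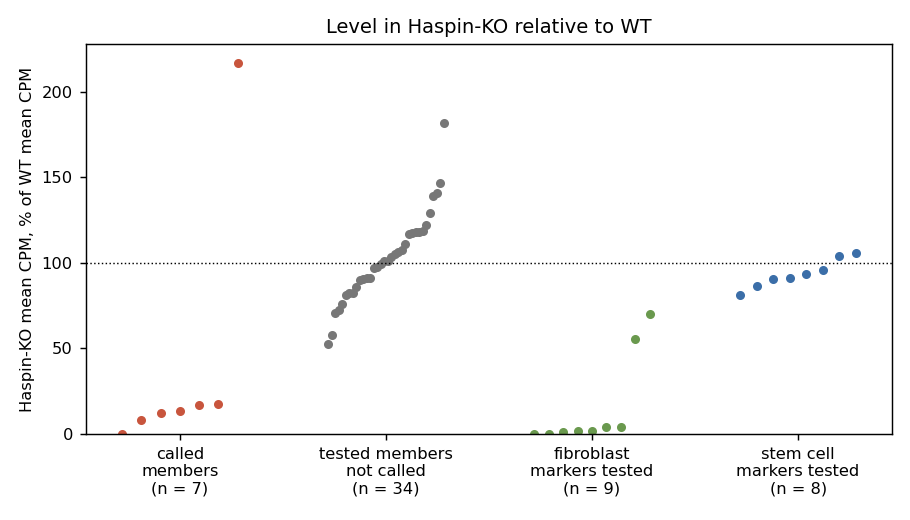
Mean CPM in Haspin-KO as a percentage of the WT mean, with a point for each called member described (n = 7), each tested member not called (n = 34), each tested fibroblast marker (n = 9) and each mESC marker (n = 8). The called members that fell lie at 17.8% or less, and the mESC markers lie between 81.5% and 106%. Called genes, among them 7 of the fibroblast markers, had to pass a fold over 2.

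Proteases and inhibitors that act with these families were taken from a list of 48 genes, of which 37 were tested. Prss23, a secreted serine protease, fell, with 151 and 81 reads in WT and 0 and 1 in Haspin-KO. Its WT mean was 27.7-fold the floor of 3 reads in each Haspin-KO library (adjusted p = 0.00067). Prss23 also passed the filter only through WT, and could be called only as lower. No other gene of the list was called lower, and none was called higher. By adjusted p alone 3 were lower and 2 higher, and the median log2 fold change of the 37 was -0.12.

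In the plasminogen system, which Serpine2 restrains, the activators had few reads. Plau, which encodes urokinase, had 11 and 9 reads in WT and 9 and 11 in Haspin-KO, and Plat, the tissue activator, had 43 and 31 reads against 45 and 21. Plg, the gene of their substrate plasminogen, had 1 read in all. Plaur, the urokinase receptor, had a log2 fold change of 0.43 (SE 0.18, adjusted p = 0.21), and Anxa2, which binds plasminogen on the cell surface, of -0.42 (SE 0.12, adjusted p = 0.0875). The clearance receptor Lrp1 had a log2 fold change of 0.11 (SE 0.08, adjusted p = 0.452).

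Among the lysosomal cathepsins and their cystatin inhibitors, 4 of the 5 tested were lower in Haspin-KO at an unadjusted p under 0.05, as were 10.4% of all genes tested. Ctsb and Cstb, the genes of cathepsin B and of the cystatin that inhibits it, had log2 fold changes of -0.36 (SE 0.07, adjusted p = 0.0329) and -0.41 (SE 0.09, adjusted p = 0.0465). Ctsl and Cst3 had values of -0.32 (adjusted p = 0.0775) and -0.30 (adjusted p = 0.126). On the other side, Htra1, a secreted serine protease, had 54.1 ± 0.03 CPM in WT and 74.1 ± 2.83 CPM in Haspin-KO (SD, n = 2 each), with a log2 fold change of 0.45 (SE 0.08, adjusted p = 0.0271). Tfpi, the inhibitor of the tissue factor pathway, had a log2 fold change of 0.62 (SE 0.13, adjusted p = 0.0388). None of these 4 values below 0.05 held in every fit without 1 library, where the adjusted p reached 0.234 for Ctsb, 0.327 for Cstb, 0.226 for Htra1 and 0.315 for Tfpi.

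The ADAM sheddases Adam10 and Adam15 had log2 fold changes of 0.34 (adjusted p = 0.0705) and -0.28 (adjusted p = 0.238). Pcolce, which enhances the cleavage of procollagen, had a value of -0.33 (adjusted p = 0.0529), Wfdc2 of -0.64 (adjusted p = 0.0711) and Bsg, a cell surface inducer of matrix metalloproteinases, of -0.29 (adjusted p = 0.056). Furin, which activates several proenzymes including pro-MMP14, and Reck, a membrane-anchored inhibitor of matrix metalloproteinases, had log2 fold changes of -0.08 and -0.07, with adjusted p of 0.821 and 0.8.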

How the data were processed

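The authors trimmed the reads with Cutadapt (1.9.1), mapped them to mm10 with HISAT2 (2.0.1) and, per the submitters' processing notes, counted them with HTSeq (0.6.1). The strand setting is not given in the sources used here. The deposited table gives raw read counts per gene, without normalization, and FPKM values. The authors' FPKM values equal the counts divided by exonic length and library total. SDs cover the spread between libraries and counting error only, and ratios to a floor cover neither.

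From the counts, genes passing edgeR's (4.0.16, in R 4.3.3) filter on low counts were normalized by TMM and tested with the quasi-likelihood test, with Benjamini-Hochberg adjustment over all genes tested. A gene was called when its fold change was over 2 and its adjusted p under 0.05. A group with at most 3 counts in each library was set to this floor, and the mean of the other group divided by the mean floor is given. This ratio does not allow for the spread between libraries. DESeq2 (1.42.0) and limma (3.58.1, on log2(FPKM + 0.1) or log2(FPKM + 1)), other scalings, filters and thresholds, thinning, a replicate block and leaving out each library were alternatives. The tests were tested on simulated data.

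The genes named were members called, members with an unadjusted p under 0.05, the 12 tested members with the highest mean FPKM, 10 members of the TIMP, gelatinase and serpin groups whatever their values, and partner genes called or with an unadjusted p under 0.05. Plau, Plat, Plg, Lrp1, Furin and Reck, the members at the ends of a range, the members of the chromosome 9 cluster and the synapsin gene were named after their values were seen. The members and lists were chosen with earlier results of these data known. One called member is not reported here by name or value and is not drawn in the figures, but is included in counts, medians and sums. The authors' comparisons were not used. Promoters came from the RefSeq table of GRCm38.p6 and gene overlaps from GENCODE M21.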

Additional observations from a re-analysis of the deposited data

How the results depend on the processing

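The 7 lower and 1 higher calls of members were all kept with the replicate block, DESeq2's size factors, library totals, no filter on low counts and thinning to the smallest library total. The fit with the replicate block called more genes over all than the main fit, so a call kept there says little. DESeq2's own test called 4 members lower, since Adamts1, Adamts5 and Adamts12 received no adjusted p, and a minimum of 10 counts in every library left 34 members, of which 3 were called lower. In limma on log2(FPKM + 0.1), on log2(FPKM + 1) and on log2(FPKM + 0.1) with no filter, 0, 0 and 0 members were called lower and 0, 0 and 0 higher, and 5, 4 and 8 members in either direction passed the same fold with p under 0.05 before adjustment. With each library left out, 2 to 7 members were called lower and 0 to 1 higher. Leaving out WT replicate 1 left 2 lower calls, with Timp2 among them, and WT replicate 2 left 3, with Timp2 and Timp3 among them, and Timp3 had an adjusted p of 0.0543 without WT replicate 1.

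Over all genes, 78 were lower and 51 higher. The counts lower were 46 with DESeq2, 140 without a filter, 36 with at least 10 counts, 21, 0 and 0 in the 3 limma fits, 236 with no minimum fold and 25 to 115 with a library left out. The counts higher were 125 without a filter, 21, 0 and 0 in limma, 154 with no minimum fold, 111 with an adjusted p under 0.1 and 5 to 121 with a library left out. Of the partner genes, 1 was lower and 0 higher. With at least 10 counts and in the 3 limma fits 0 were lower, and with no minimum fold 3 were lower and 2 higher. The median log2 fold change of the members was 0.019 with at least 10 counts, -0.11 after thinning, and -0.099 to -0.028 with a library left out.

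The sign turned for Mmp11 without WT replicate 2 (-0.19) or Haspin-KO replicate 1 (-0.01), for Adamts9 with no filter (-0.011), for Serpinb9b without WT replicate 1 (-0.23) or Haspin-KO replicate 2 (-0.09), for Mmp2 after thinning (0.018) or without Haspin-KO replicate 1 (0.23), and for Mmp9 without WT replicate 2 (-0.06) or Haspin-KO replicate 1 (-0.23). Their highest or lowest values with another library left out were 0.35 (Mmp11), 0.46 (Serpinb9b), -0.31 (Mmp2) and 0.33 (Mmp9), and none of these genes was called. Where calls changed for another reason than fewer genes or libraries, the cause was not tested.

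The libraries share replicate numbers, and no source ties libraries of the same number to a shared preparation. Across the 15580 genes, which are not independent, the difference between replicates 1 and 2 in WT had a Pearson's r of 0.289 with that in Haspin-KO. The fit with a replicate block called 167 genes lower and 240 higher. With 2 libraries per group, calls of genes with few reads are limited by depth.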

Other observations

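Besides the members named in the report, 9 members had more than 10 reads in total without passing the filter on low counts. Among them, Mmp24 had 12 and 17 reads in WT and 5 and 9 in Haspin-KO, Adamts17 had 15 and 6 against 5 and 8, Adamts6 had 9 and 4 against 1 and 1, and Serpinb8 had 2 and 10 against 0 and 5. These members were not tested.

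Each of 3 TIMP genes lies inside a synapsin gene on the opposite strand. Timp1 shares no exonic base with Syn1, which had 279 and 250 reads in WT and 228 and 240 in Haspin-KO. Syn2, which surrounds Timp4, had 3 and 0 reads in WT and 1 and 1 in Haspin-KO. Of the 42 members tested, 10 share exonic bases with another gene, and Timp3 is the one such member among the 8 called.

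In the annotation deposited with the table, 60 of the 63 serpins carry the term for inhibitors of serine-type endopeptidases, 23 of the 23 matrix metalloproteinases and 17 of the 19 ADAMTS genes carry the term for metalloendopeptidases, and 4 of the 4 TIMPs carry that for their inhibitors. Of the 5 ADAMTS-like genes, 3 also carry the metalloendopeptidase term.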
